A study of Mus musculus with 32 samples.

Results

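The average difference between transgenic and littermate control glia was taken over 2 mouse models of neurodegeneration, SOD1-G93A and TAU-P301L. Its members are the 16 glia arrays of the series' 32, which hold 8 littermate pairs out of 16, with 4 pairs (8 arrays) per model. They were chosen by the array titles alone. Each pair compared 1 transgenic female with its nontransgenic littermate on 2 arrays with exchanged dyes, and these were averaged to 1 log2 ratio per pair. The effect of a gene was the mean of the 8 pair ratios with both models weighted equally.

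The SOD1-G93A mice carried a mutant human superoxide dismutase transgene, B6SJL-Tg(SOD1-G93A)1Gur, and were 8 weeks old, with B6SJL littermates as controls. The TAU-P301L mice carried a mutant tau transgene on B6D2F1 and were 16 weeks old, with B6D2F1 littermates as controls. Model, strain and age therefore cannot be told apart between the 2 sets of pairs, while within a pair they are matched. The glia were the cells around lumbar anterior horn motor neurons, cut out by laser from cresyl violet sections, 500 per mouse, and RNA was amplified linearly before labelling. The labels do not state the promoter of the tau transgene. In such captures, fewer cells of a type and less RNA per cell cannot be told apart.

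SOD1-G93A mice develop a motor neuron disease that resembles amyotrophic lateral sclerosis, and TAU-P301L mice accumulate aggregated tau. In both conditions astrocytes, oligodendrocytes and microglia around diseased neurons are known to change state, with astrocytes raising intermediate filaments and microglia raising complement and lysosomal genes. Glia also supply neurons with lactate, lipids and glutamate clearance, so that their metabolic genes are of interest beside the inflammatory ones.

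On average over both models, 172 of the 8346 genes tested in glia passed the threshold (2.06%), 23 higher (0.276%) and 149 lower (1.79%) in transgenic glia. The higher genes included Paqr4, a member of the progestin and adipoQ receptor family, Ints3, a subunit of the Integrator and SOSS complexes that act on nascent RNA and DNA breaks, and Trappc5, a subunit of a vesicle tethering complex. The lower genes included Cfl1, the actin-severing protein cofilin, Pip5k1c, which makes the membrane lipid PIP2, and Negr1, an adhesion molecule of the neuronal surface. Changes were small, with a median log2 ratio of 0.28 (0.18 to 0.49) for the higher and -0.43 (-0.86 to -0.20) for the lower genes. A gene counts as called here when its limma p, adjusted by Benjamini-Hochberg over all 8346 genes, is under 0.05. All 172 adjusted p-values were at least 0.0466, so that the whole set lay close under the threshold. Leaving out any 1 pair other than TAU-P301L pair 1 brought the count to 0, while leaving out that pair brought it to 435. All 172 kept their direction in each of these fits, which largely follows from their choice on the same pairs. Dividing the arrays only by their median, with no correction along intensity, called 432 higher and 0 lower genes, with 139 of the 149 lower genes still below 0. The median of these 149 genes shrank to -0.16 under that setting, and that of the 23 higher genes grew to 0.48.

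Unadjusted counts were larger. An unadjusted p under 0.05 was reached by 627 genes on the higher side (7.51%) and 947 on the lower side (11.3%). Among 6207 genes with a ratio in all 8 pairs, 80 were above 0 in every pair (1.29%) and 333 below 0 in every pair (5.36%). The median over all 8346 genes was 0.02, and 57.6% of them lay above 0.

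Promoters of called genes are shown to let the sequence contexts of a higher gene, a lower signalling gene and a lower gene of a sensory receptor family be set side by side. Each is the 150 bases before the start of the gene in RefSeq (GRCm38.p6), with capitals where 1 of 3 motifs matched on either strand. The GC box was searched as GGGCGG. The core promoter box bound by the general transcription machinery was searched as TATAAA. The box bound by nuclear factor Y was searched as CCAAT. Matches of different motifs can overlap.
Paqr4, chr17:23740331-23740480, minus strand: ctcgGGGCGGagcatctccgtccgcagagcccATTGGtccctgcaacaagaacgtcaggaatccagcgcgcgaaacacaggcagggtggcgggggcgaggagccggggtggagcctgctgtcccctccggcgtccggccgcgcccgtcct
Pip5k1c, chr10:81292813-81292962, plus strand: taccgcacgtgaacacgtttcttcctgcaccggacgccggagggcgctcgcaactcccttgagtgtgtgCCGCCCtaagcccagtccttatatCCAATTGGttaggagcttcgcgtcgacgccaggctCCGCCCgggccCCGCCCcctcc
Olfr876, chr9:37803739-37803888, plus strand: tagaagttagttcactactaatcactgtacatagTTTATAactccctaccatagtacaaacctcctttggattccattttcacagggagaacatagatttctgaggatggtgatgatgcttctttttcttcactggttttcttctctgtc
The stretch of Paqr4 held 17 CG dinucleotides, that of Pip5k1c 16 and that of Olfr876 0. Over the 250 bases before the start, GGGCGG was found in 48 of 101 lower genes with a promoter in the table (47.5%), in 12 of 18 higher genes (66.7%), in 55.2% of 5814 tested genes and in 32.7% of all 32851 promoters. TATAAA was found in 7.92%, 11.1%, 8.15% and 12.4% of the same 4 sets, and CCAAT in 34.7%, 27.8%, 36.2% and 33.8%. These shares are descriptions with no test, and a match describes the sequence only.

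Of the 23 higher genes, 8 had 1 sign in all 8 pairs. Paqr4 had log2 ratios of 0.20, 0.35, 0.30 and 0.54 in SOD1-G93A pairs 1 to 4 and of 0.36, 0.26, 0.13 and 0.38 in TAU-P301L pairs 1 to 4. The ranges of the models overlapped, and every pair lay above 0, which the rule for naming genes required. Its average was 0.32 ± 0.05 (SE, 8 pairs, limma adjusted p = 0.0466), a 1.24-fold level in transgenic glia. Ints3 had 0.38, 0.24, 0.48 and 0.42 in SOD1-G93A glia and 0.37, 0.12, 0.13 and 0.11 in TAU-P301L glia, so that 3 of the 4 TAU-P301L pairs lay below every SOD1-G93A pair. Its average was 0.28 ± 0.05 (SE, 8 pairs, limma adjusted p = 0.0466).

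Ppp2r3c, a regulatory subunit of protein phosphatase 2A, rose by 0.30 ± 0.06 (SE), with pair ratios from 0.10 to 0.46 in SOD1-G93A and from 0.06 to 0.48 in TAU-P301L glia. Pigp, a subunit of the enzyme that starts GPI anchor synthesis, rose by 0.23, with SOD1-G93A pairs at 0.02 to 0.16 and all TAU-P301L pairs higher, at 0.28 to 0.52. Madd, an exchange factor for Rab3 GTPases, rose by 0.22, and its 2 models had nearly the same mean, 0.23 and 0.22. Mvb12a, a subunit of the ESCRT-I sorting complex, and Trappc5 each rose by 0.22, and the Wnt receptor gene Fzd9 by 0.18. Each of these had a limma adjusted p between 0.0466 and 0.0485. The next genes with 1 sign in 8 pairs did not pass, namely Mrtfa, a coactivator of serum response factor, at 0.27 (adjusted p = 0.0506) and the fatty acid carrier gene Fabp3 at 0.28 (adjusted p = 0.0525).

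The other 15 higher genes lacked 1 sign in all 8 pairs or a ratio in each, and except for Ammecr1l those named here were chosen after their values were seen. Of the 23 higher genes, 14 differed between the models at an unadjusted p under 0.05, against 0 of the 149 lower genes and 477 of all 8346 genes (5.72%). The average and the difference use the same spread of each gene, so the choice of the called genes also bears on these counts. Smarca4, the ATPase of a chromatin remodelling complex, averaged 0.33 from 0.61 in SOD1-G93A and 0.05 in TAU-P301L glia. Ccdc28a averaged 0.31 from 0.06 and 0.56, and Ammecr1l 0.26 from 0.50 and 0.03. Cab39, a scaffold of the LKB1 kinase, averaged 0.46 from 0.66 and 0.25, and Pja2, a ubiquitin ligase, 0.49 from 0.72 and 0.25. For none of the 8346 genes did the difference between models pass after adjustment (limma, lowest adjusted p = 0.701).

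**Figure D1:**
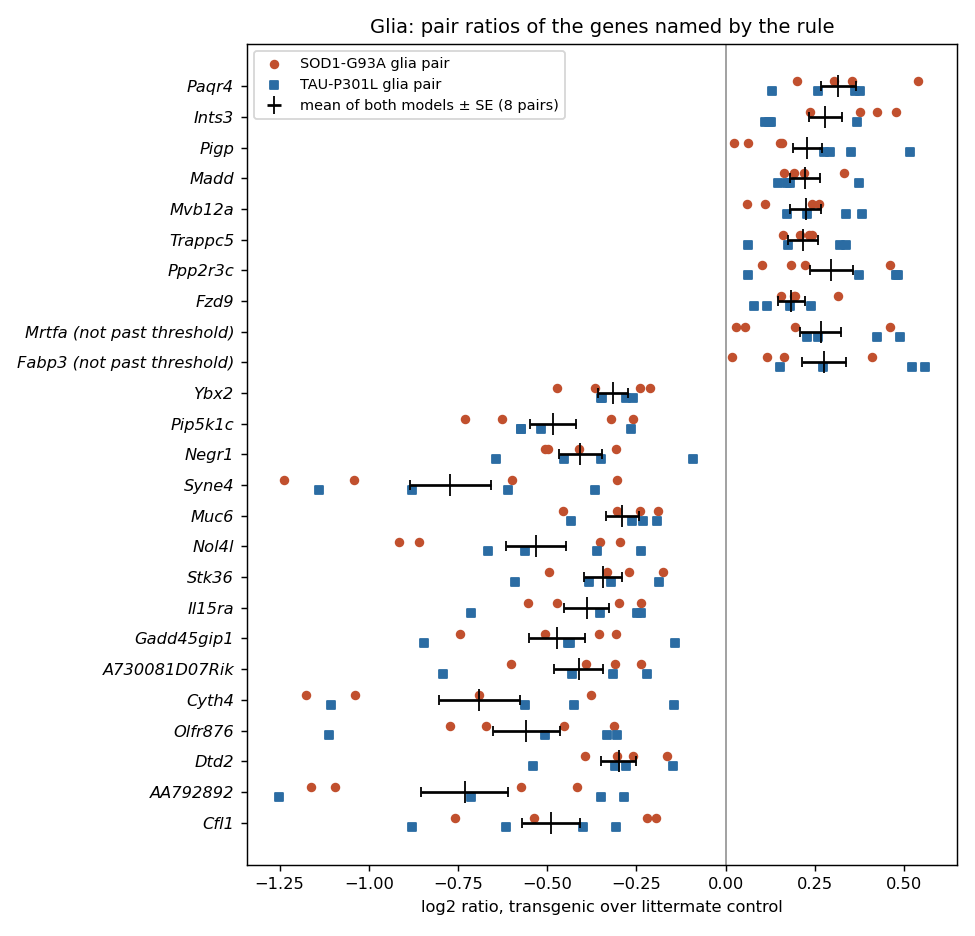
Log2 ratios of transgenic over littermate control glia (x axis) for 25 genes taken by smallest p (y axis), 8 that passed higher, 2 next to them that did not and 15 that passed lower, with SOD1-G93A pairs as circles, TAU-P301L pairs as squares and the average of both models ± SE (8 pairs) as a bar. All 8 pairs of each gene lie on 1 side of 0, which the rule required, and the lower genes reach farther from 0 than the higher ones, down to -1.25 in a pair of AA792892.

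Among the lower genes, Cfl1 had ratios of -0.20, -0.54, -0.22 and -0.76 in SOD1-G93A pairs 1 to 4 and of -0.88, -0.31, -0.40 and -0.61 in TAU-P301L pairs 1 to 4. Both models spanned a similar range, and every pair was below 0, which the rule for naming genes required. Its average was -0.49 ± 0.08 (SE, 8 pairs, limma adjusted p = 0.0466), a 0.713-fold level. Pip5k1c had -0.26, -0.73, -0.32 and -0.63 in SOD1-G93A glia and -0.52, -0.27, -0.57 and -0.57 in TAU-P301L glia, and the model means were both -0.48. The difference of its model means was -0.002 ± 0.128 (SE). Negr1 averaged -0.41 ± 0.06 (SE), with pairs from -0.51 to -0.31 in SOD1-G93A and from -0.64 to -0.09 in TAU-P301L glia.

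Several of the lower genes are known from tissues other than the cord. Muc6, which encodes a gastric mucin, had ratios of -0.19, -0.30, -0.24 and -0.46 in SOD1-G93A glia and -0.19, -0.23, -0.26 and -0.43 in TAU-P301L glia. Olfr876, an odorant receptor gene, had -0.31, -0.77, -0.45 and -0.67 and then -0.51, -0.31, -0.33 and -1.11 in the same order. Ybx2, a Y-box RNA-binding protein of germ cells, averaged -0.32 ± 0.04 (SE), and read 0.0095 when arrays were centred on their median only. Across the 166 olfactory receptor genes tested, a family looked up after these values were seen, 112 lay below 0 (67.5%) with a median of -0.03, and 4 were called lower (2.41%) and 0 higher. Over all 8346 genes 42.4% lay below 0 and 1.79% were called lower, so the called share of the family was near that of all genes.

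The remaining named genes on this side were Syne4 (-0.77), which encodes a nuclear envelope linker, AA792892 (-0.73), Cyth4 (-0.69), an exchange factor for ARF GTPases, and Nol4l (-0.53). Gadd45gip1 (-0.47), a component of the mitochondrial ribosome, A730081D07Rik (-0.41), the interleukin 15 receptor gene Il15ra (-0.39), the kinase gene Stk36 (-0.34) and Dtd2 (-0.30) completed the set of 15. Single pairs of Syne4 ran from -1.24 to -0.30. From the function lists, the presynaptic scaffold gene Bsn at -0.40 ± 0.08 (SE), the kinesin light chain gene Klc2 at -0.35 ± 0.07 and the death receptor adaptor gene Fadd at -0.28 ± 0.06 also passed, with limma adjusted p of 0.0485, 0.0491 and 0.0484.

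The lower genes were bright and moved together. Ranked by their level in control glia over all 8346 genes, and cut into 10 bins of equal size, 67 of the 149 lay in the brightest bin, 55 in the next, 20 and 7 in the following 2 bins and 0 in the other 6. The 23 higher genes were spread over 9 of the bins, with between 1 and 4 in each. Within the glia pairs, the median of the 149 lower genes was -0.24, -0.58, -0.36 and -0.66 in SOD1-G93A pairs 1 to 4 and -0.14, -0.23, -0.45 and -0.62 in TAU-P301L pairs 1 to 4. The median of the 23 higher genes was 0.20, 0.25, 0.30 and 0.25, then 0.34, 0.26, 0.29 and 0.36. On single arrays, before dyes were averaged, the lower genes had a median below 0 on 12 of 16 arrays and the higher genes above 0 on 14 of 16.

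The motor neuron arrays, which had no part in choosing these genes, were read next. In the 8 motor neuron pairs of the same models, the median of the 149 lower genes was -0.05, -0.02, 0.53 and 0.51 in SOD1-G93A pairs 1 to 4 and 0.20, -0.22, -0.10 and -0.28 in TAU-P301L pairs 1 to 4. Pairs of 1 group thus lay on both sides of 0. Across these 8 pairs, 135 of the genes with complete values had a median correlation of 0.85 with each other, against 0.0015 for 8017 tested genes. The 20 higher genes with complete values had a median correlation of 0.37. The points share arrays, dyes and scans, so these correlations describe the arrays and carry no test.

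Averaged over both models, 147 of the lower genes were tested in motor neurons, and 6 of them had the same sign as in glia. Their median there was 0.08, and 0 had an unadjusted p under 0.05 in the opposite direction. Since these genes moved together across the motor neuron pairs, they do not count as separate observations. Of 22 higher genes tested there, 13 had the same sign as in glia. No gene of the 10828 tested there passed (limma, lowest adjusted p = 1.00), and 199 had an unadjusted p under 0.05 (1.84%). The difference between glia and motor neurons was tested directly for 7835 genes. Again 0 passed (limma, lowest adjusted p = 0.0937), with 1184 at an unadjusted p under 0.05 (15.1%), among them 147 of 147 lower and 14 of 22 higher genes, where the glia values that chose the genes enter the difference. Motor neuron arrays were extracted with another version of the scanner software and scanned apart from the glia arrays, so cell type and array run cannot be told apart in these differences.

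Examples show both patterns. Cfl1 read -0.30, 0.28, 0.16 and 0.54 in SOD1-G93A and 0.30, -0.15, -0.10 and -0.02 in TAU-P301L motor neurons, and its glia minus motor neuron difference was -0.58 (limma adjusted p = 0.0937). Olfr876 read 0.0045, 0.045, 0.92 and 0.52, then 0.24, -0.25, -0.13 and -0.46, with a difference of -0.67 (limma adjusted p = 0.0937). Ints3 averaged -0.05 in motor neurons, with pairs from -0.30 to 0.21, and differed by 0.33 (limma adjusted p = 0.0937). Paqr4 averaged 0.02 there, with pairs from -0.63 to 0.76, and differed by 0.30 (limma adjusted p = 0.364).

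**Figure D2:**
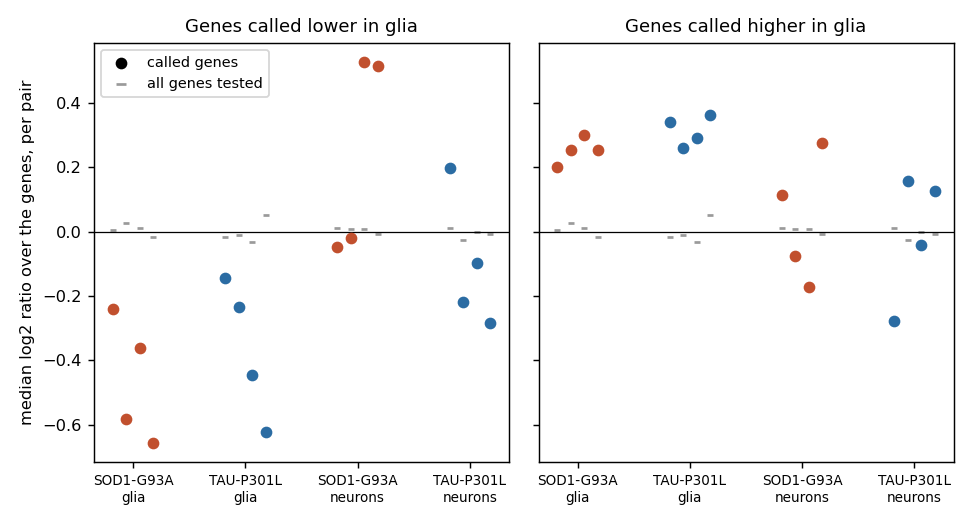
Median log2 ratio per littermate pair (y axis) of the genes called lower in glia (left) and called higher in glia (right), in glia and in motor neurons of each model (x axis, pairs 1 to 4 from left to right), with the median of all 8346 genes as a grey dash. The glia values follow from the choice of the genes, while the motor neuron values fall on both sides of 0, up to 0.53 for the lower genes in SOD1-G93A pair 3.

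A second probe gave a check within the same arrays. For 21 of the lower genes, 23 other tested probes existed, of which 9 had the sign of the main probe, with a median of 0.01. An unadjusted p under 0.05 was reached by 2 of the probes with the same sign and by 5 with the opposite sign, those of Pde4a, Ric8a, Herc3, Lce1b and Epb41l1. For 6 of the higher genes, 5 of 6 other probes had the same sign, but their median was only 0.07. An unadjusted p under 0.05 was reached by 2 of these with the same sign and 0 with the opposite sign. Pja2 read 0.49 on the main probe and 0.0048 on the other, Ppp2r3c 0.30 and 0.04, and Smarca4 0.33 and 0.09. Over all tested genes, 669 of 1119 other probes did (59.8%). Pthlh, a hormone-like peptide gene, read -0.29 and -0.32 on its probes. Cyth4 read -0.69 on the main probe and 0.02 and -0.07 on the others. Ric8a, a chaperone of G proteins, read -0.48 and 0.29. Except for Cyth4 and Ppp2r3c, these genes were named after their values were seen.

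The models were compared gene by gene without the average. In SOD1-G93A glia alone 1287 genes had an unadjusted p under 0.05 (15.4%) and in TAU-P301L glia alone 1016 (12.2%), with 0 past the adjusted threshold in either (limma, lowest adjusted p = 0.147 and 0.182). Of those 1287 genes, 1024 had the same sign in TAU-P301L glia (79.6%), and of the 1016 genes, 816 did in SOD1-G93A glia (80.3%), against 61.3% of all genes tested. The 470 genes in both sets made up 36.5% of the first and 46.3% of the second, and 448 of them had 1 sign in both models, 400 lower and 48 higher. The models come from different colonies and share no control mouse, but scans 5 and 6 each held 2 arrays of each model. Genes do not count as separate observations in these shares. The called lower genes, for example, had a median correlation of 0.72 with each other across the 8 glia pairs, which partly follows from their choice.

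**Figure D3:**
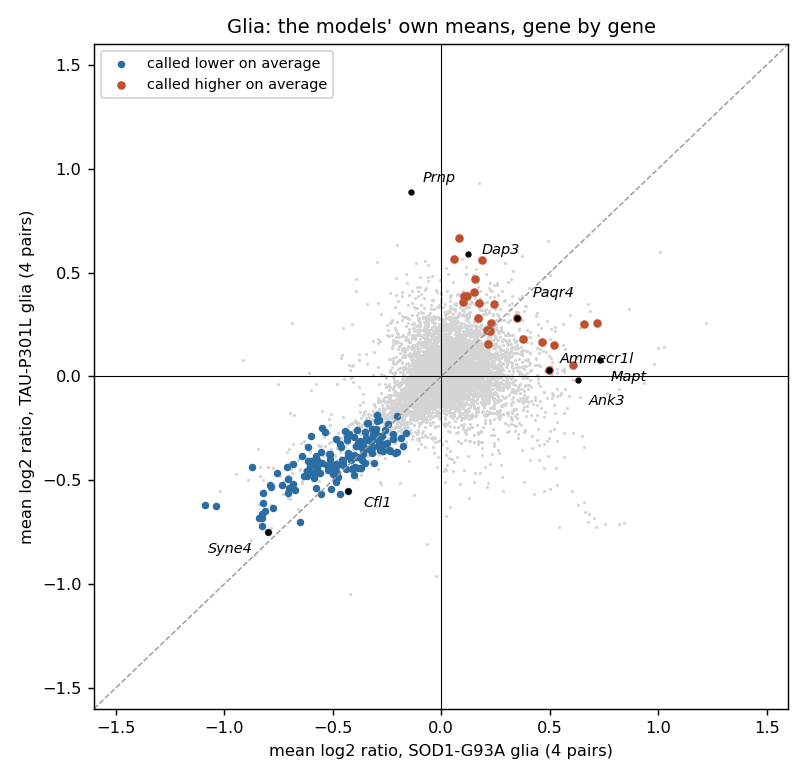
Mean log2 ratio of each gene in TAU-P301L glia (y axis) against SOD1-G93A glia (x axis), 4 pairs each, with 2 of 8346 genes beyond the axes and the dashed line for equal means. Genes called lower on average (blue) lie along the line, while most genes called higher (red) lie off it, toward 1 model, as do Prnp and Ank3, which did not pass.

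The genes tied to the transgenes did not pass on average. Sod1 averaged 0.09 ± 0.08 (SE, limma adjusted p = 0.629), with SOD1-G93A pairs at -0.11, -0.45, -0.16 and 0.29 and TAU-P301L pairs at 0.45, 0.40, 0.09 and 0.19. Mapt, the tau gene, averaged 0.41 ± 0.16 (SE, limma adjusted p = 0.216), from 0.60 to 1.00 in SOD1-G93A and from -0.96 to 0.82 in TAU-P301L glia. Other tested probes of Mapt averaged 0.12 and 0.26 (limma unadjusted p = 0.0109 and 0.00364, against 0.0343 for the probe above). Prnp, the prion protein gene, averaged 0.37 ± 0.13 (SE, limma adjusted p = 0.151), although its pairs were 0.42, -0.12, 0.09 and -0.95 in SOD1-G93A and 1.02, 1.00, 0.93 and 0.60 in TAU-P301L glia, which do not overlap. Whether these mouse probes read transgene RNA was not tested.

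Genes that earlier results of these data had named in SOD1-G93A glia were read on the average as well. Ank3, the ankyrin of axon initial segments, averaged 0.31 ± 0.08 (SE, limma adjusted p = 0.0680), from 0.63 in SOD1-G93A and -0.02 in TAU-P301L glia. Slc6a6, the taurine transporter gene, averaged 0.16 from 0.37 and -0.06. Ppargc1a, a coactivator of mitochondrial genes, averaged 0.12, and Nup54, of the nuclear pore, -0.095. Akr1cl averaged -0.18 with all 8 pairs below 0 (limma adjusted p = 0.0646). Its other tested probe averaged -0.26 (limma unadjusted p = 0.000226), and that of Ppargc1a 0.04 (limma unadjusted p = 0.425). Ints3, Ammecr1l and Muc6 passed on average, as given above. Taok1 was not among the genes tested.

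The captures were checked against cell type markers before the lists were read. In control glia, astrocyte markers had a mean log2 intensity of 8.51 ± 0.27 (SD, n = 4) in the SOD1-G93A colony and 8.48 ± 0.31 in the TAU-P301L colony, with 15 and 11 of 20 markers well above background in 4 of 4 extracts. Oligodendrocyte markers had 14 and 8 of 20 and microglia markers 9 and 6 of 18. Glul, Mbp and Mag were well above background in 16 of 16 glia extracts, whereas Gfap, the intermediate filament of astrocytes, was in 2, and C1qa, a complement gene of microglia, in 4. Neuronal RNA was present too, with Snap25 well above background in 16 of 16 and 13 and 10 of 26 pan-neuronal markers in all control extracts of the 2 colonies. In motor neuron extracts, Glul, Mbp and Mag were well above background in 15, 15 and 14 of 16. Their control levels were lower there than in glia, and that of Snap25 was higher. Aqp4, of astrocytes, and Aif1, of microglia, were well above background in 14 and 13 motor neuron and 9 and 9 glia extracts. Chat, of motor neurons, was in 8 and 5, at nearly the same control level. Detection alone thus separated these captures poorly, and array run differed too.

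Lists of cell type markers held 0 called genes, against 2.06% of all genes. With 3 to 18 genes tested per list, they are too short for 0 to differ from that share. Pan-neuronal markers lay above 0 in 17 of 18 tested, with a median of 0.13 against 0.02 over all genes, led by Thy1 at 0.27 and the deubiquitinase gene Uchl1 at 0.55. Their mean by pair was 0.01, -0.04, 0.46 and -0.12 in SOD1-G93A and 0.22, 0.21, 0.04 and 0.27 in TAU-P301L glia. Motor neuron markers lay above 0 in 6 of 8 (median 0.13), with Isl1 at -0.20 and Isl2 at 0.22. Endothelial and pericyte markers lay above 0 in 8 of 12 (median 0.04, from 0.11 in SOD1-G93A and -0.05 in TAU-P301L glia), interneuron markers in 5 of 8 (0.04, from 0.07 and -0.04) and oligodendrocyte precursor markers in 4 of 6 (0.03).

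Astrocyte markers lay below 0 in 12 of 18 (median -0.04, and 0.14 with arrays centred on their median only), with the secreted chaperone gene Clu at -0.34 and the protease inhibitor gene Cst3 at -0.28, which read 0.021 and 0.11 under that centring. The median of the astrocyte markers was 0.06 in SOD1-G93A and -0.15 in TAU-P301L glia, with a list mean above 0 in 3 of 4 pairs of the first and below 0 in 4 of 4 pairs of the second. Oligodendrocyte markers were split 7 to 7 (median 0.01, from 0.06 and -0.07), with Sox10 at -0.18 (0.049 under that centring) and Fa2h at 0.10, and microglia markers lay below 0 in 7 of 12 (median -0.02, from 0.04 and -0.08, and 0.07 under that centring), with Csf1r at -0.15 and Cx3cr1 at 0.09. Of 3 red blood cell markers 2 were below 0, and 4 of 4 meningeal fibroblast markers were, with a median of -0.28, a list mean of -1.45 in SOD1-G93A pair 3 and between -0.40 and 0.17 in the other 7 pairs.

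Pair ratios also went with the difference between control motor neuron and control glia arrays. These arrays were scanned apart and extracted with different software versions, so cell type and array run cannot be told apart in that difference. Against the control motor neuron minus control glia difference of the other colony, which shares no extract with the pair, the slope was 0.11, 0.14, 0.21 and 0.13 in SOD1-G93A pairs 1 to 4 and 0.10, 0.14, 0.15 and 0.20 in TAU-P301L pairs 1 to 4. All 8 slopes were above 0, and without the 172 called genes they were 0.08 to 0.20. The called lower genes themselves were dimmer in control motor neurons than in control glia by a median of 0.99 on the log2 scale. The same control glia extracts enter the ratios that chose these genes, so this value partly follows from their choice. It was not set against other genes of equal brightness. The part of neuronal RNA in the called genes was not tested.

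Lists of functions were then described by counts and medians. Mitochondrial ribosome genes lay above 0 in 51 of 59 tested, with a median of 0.08, and their list mean was above 0 in 8 of 8 pairs, from 0.0043 to 0.07 in SOD1-G93A and from 0.06 to 0.20 in TAU-P301L glia. Dap3, of the small subunit, averaged 0.36 (limma adjusted p = 0.0540), with 0.12 in SOD1-G93A and 0.59 in TAU-P301L glia, and Mrpl40 averaged 0.24 with all 8 pairs above 0 (adjusted p = 0.0666). Oxidative phosphorylation genes lay above 0 in 52 of 67 (median 0.07), from a median of 0.00067 in SOD1-G93A and 0.15 in TAU-P301L glia, and the complex I gene Ndufs3 at 0.23 and the cytochrome oxidase gene Cox7b at 0.19 were above 0 in 8 pairs. Proteasome genes lay above 0 in 24 of 28 (median 0.06), again from -0.02 in SOD1-G93A and 0.16 in TAU-P301L glia, with Psmb2 at -0.26 and Psmc6 at 0.22. In each of these lists 0 genes were called, against 2.06% of all genes. However, Gadd45gip1, a mitochondrial ribosome component that the list did not hold, was called lower as given above. The medians of these lists stayed above 0 under all 28 alternatives. The list mean of the pan-neuronal markers was above 0 in 6 of the same 8 pairs, and their part in these lists was not tested.

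Cytosolic ribosome genes were split, with 33 of 69 above 0 and a median of -0.01 (0.02 in SOD1-G93A and -0.05 in TAU-P301L glia) that turned to 0.32 with arrays centred on their median only. Cholesterol synthesis genes lay above 0 in 14 of 17 (median 0.08), led by Tm7sf2 at 0.18. Heat shock and chaperone genes lay above 0 in 18 of 23 (median 0.05), with the cochaperone gene Dnajb6 at 0.21 and the heat shock transcription factor gene Hsf1 at -0.61, which was below 0 in all 7 pairs measured (adjusted p = 0.0614). Genes of endoplasmic reticulum stress and the amino acid response lay below 0 in 12 of 18 (median -0.02, from 0.05 and -0.02, and 0.08 under that centring), although asparagine synthetase Asns was at 0.34 (adjusted p = 0.0561) and Chac1 at 0.26. Antioxidant and metallothionein genes lay above 0 in 18 of 26 (median 0.03), with Mt1 at -0.46.

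Lists of glial reaction held 0 called genes, against 2.06% of all genes, which is under 1 gene in lists of 9 and 15. Reactive astrocyte genes lay below 0 in 7 of 9 tested (median -0.07, -0.00060 with arrays centred on their median only, and above 0 within scan 5 and within scan 6), with the intermediate filament gene Nes at -0.44 and all 8 pairs below 0 (limma adjusted p = 0.0523). Microglial activation and complement genes lay below 0 in 12 of 15 (median -0.06, and 0.06 under that centring), with Trem2 at 0.07 and Itgax at -0.10, which read 0.0050 under that centring. Both list means were above 0 in 5 of 8 pairs, and were lowest in pair 3 of each model, at -0.39 and -0.43 for reactive astrocyte genes and -0.16 and -0.41 for microglial activation genes. Astrocyte genes of glutamate, potassium and water handling lay below 0 in 9 of 15 (median -0.02, from 0.10 in SOD1-G93A and -0.14 in TAU-P301L glia, and 0.16 under that centring), and myelin genes above 0 in 7 of 12 (0.02, from 0.08 and -0.07). Apoptosis genes lay below 0 in 9 of 16 (median -0.03, and 0.07 under that centring), 1 of them called, Fadd, and their list mean was below 0 in 7 of 8 pairs.

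Neuronal function lists lay mostly above 0, while their called members were lower. Synaptic vesicle and release genes lay above 0 in 16 of 21 (median 0.08), while Bsn, the 1 called, was lower. Cytoskeleton and axonal transport genes lay above 0 in 25 of 34 (median 0.10), while Klc2, the 1 called, was lower. Genes of lysosome and autophagy (20 of 34 above 0, median 0.02), glycolysis and lactate shuttle (12 of 18, 0.02, from -0.03 in SOD1-G93A and 0.08 in TAU-P301L glia), immediate early response (7 of 9, 0.05, from 0.12 and -0.03), spliceosome and RNA binding (15 of 21, 0.02) and the blood-brain barrier and angiogenesis (6 of 9, 0.02, from 0.12 and -0.08) held 0 called genes each. Over all genes 2.06% were called, so counts of 0 or 1 in lists of 9 to 34 genes are near that share.

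**Figure D4:**
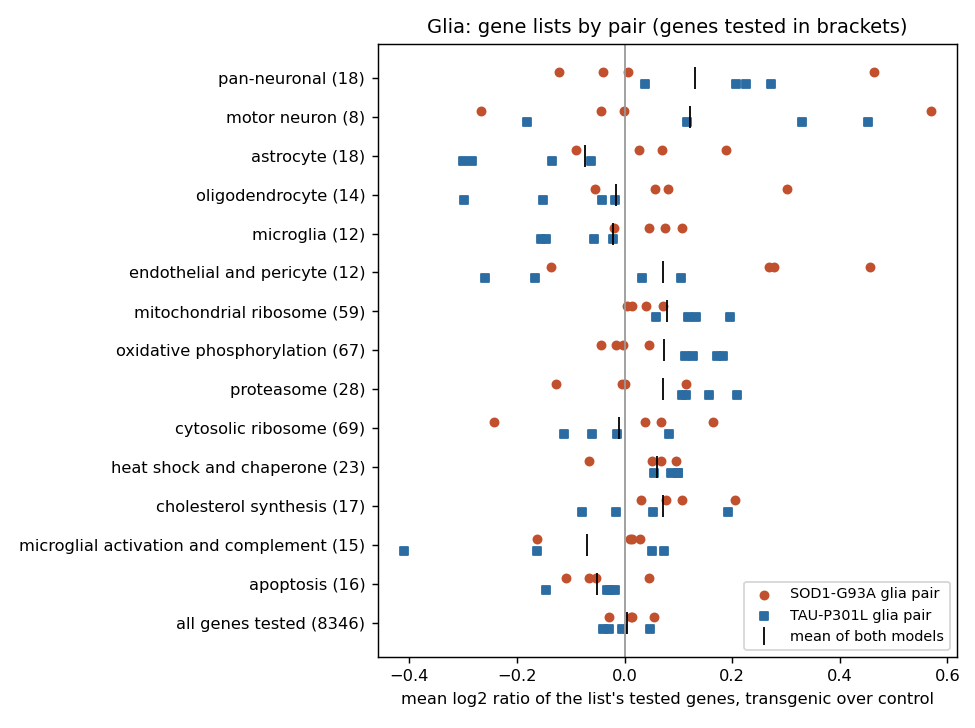
Mean log2 ratio of transgenic over control glia over the tested genes of a list (x axis) for each SOD1-G93A pair (circles) and TAU-P301L pair (squares), with the average of both models as a bar and the number of genes tested in brackets. The mitochondrial ribosome is above 0 in all 8 pairs, oxidative phosphorylation is above 0 in all 4 TAU-P301L pairs and near 0 in SOD1-G93A, and pan-neuronal markers reach 0.46 in SOD1-G93A pair 3.

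Quality differed between the pairs. Well above background were 3493 to 26379 probes per glia extract. Over the tested genes, the 2 dye-exchanged arrays of a pair correlated at -0.0064, -0.44, 0.54 and 0.55 in SOD1-G93A pairs 1 to 4 and at -0.75, 0.14, -0.09 and 0.46 in TAU-P301L pairs 1 to 4. SOD1-G93A pair 2 and TAU-P301L pair 1, scanned together, stood apart, with array medians of 0.37 and -0.30 and of 0.40 and -0.45. Without these 2 pairs 0 genes passed (limma, lowest adjusted p = 0.0780, 1598 genes at an unadjusted p under 0.05). All 172 kept their direction, which largely follows from their choice on pairs that include the remaining ones. No glia arrays held identical values.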

How the data were processed

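Scanner intensity files were deposited for each array, and the authors' deposited value table held scanner log10 ratios, used as an alternative. Intensity was background-corrected (limma 3.58.1, R 4.3.3, normexp, offset 50) and loess-normalized within arrays, with control spots at weight 0 and outlier spots left out. Each gene took the value of the probe with the highest mean signal, and entered the test if well above background in at least 4 of 8 extracts of each model, with ratios in at least 3 pairs of each. The limma fit of 8 pairs had 1 mean per model, and its call for the average was tested on simulated data. The simulated noise was independent between genes, with no effect of array, dye or scan. That run therefore cannot speak to calls among genes that move together. The members and lists were chosen with earlier results of these data known. Named were up to 15 passing genes per direction with 1 sign in 8 pairs, by smallest p, filled up to 10 with genes that did not pass, then passing list members or otherwise the 2 of smallest p, Sod1, Mapt, Prnp, and genes known from earlier results. P-values measure the spread between these pairs, and the number of arrays limits the precision. Motor neuron pairs were processed alike. Some items are not reported here. Settings tried are in the closing section.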

Additional observations from a re-analysis of the deposited data

Results flagged for a closer look

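Of 215 groups of 4 pairs tested, 9 held a pair far from the other 3, where chance alone flags about 1 group in 20 (10.8 here). TAU-P301L pair 1 was high for Ints3 at 0.37, with the other pairs at 0.11 to 0.13, and for Madd at 0.38, with the others at 0.15 to 0.18. TAU-P301L pair 4 read 0.053 for the haemoglobin gene Hbb-bt, with the others at -0.99 to -0.81. SOD1-G93A pair 3 read -1.24 for Dcn, a matrix proteoglycan gene, with the others at 0.11 to 0.37, and had a list mean of -1.45 for meningeal fibroblast markers, with the others at -0.0025 to 0.17. Its list mean for microglial activation and complement was -0.16, with the others at 0.0097 to 0.03.

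TAU-P301L pair 3 read -0.0055 for Rpl26, a ribosomal protein gene, with the others at -0.34 to -0.30. Its list mean was -0.43 for reactive astrocyte genes, with the others at -0.03 to 0.03, and -0.15 for apoptosis genes, with the others at -0.03 to -0.02. The cause of these values was not tested.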

How the results depend on the processing

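The 172 genes called of 8346 (23 higher, 149 lower, limma) became 511 (55, 456) in a fit with all 16 pairs, 354 (39, 315) with no model term, 432 (432, 0) with median centring, 355 (69, 286) with array weights, 428 (77, 351) with scan as a random block and 388 (59, 329) with a replicate block, in which pairs share only a number. With all 8 extracts above background, only 2738 genes were tested, and 373 of them were called (33, 340). A normexp offset of 16 gave 237 (32, 205), and the mean over probes gave 144 (18, 126) of 8471 tested. Arrays centred on the tested genes gave 237 (25, 212). Loess on spots well above background gave 158 (21, 137), and both of these settings were chosen after seeing the data. Counts were 0 in limma without background correction, with scaling between arrays, with the scanner log ratio, with the authors' value table, with no filter on dim probes, without the pairs of negative dye-switch correlation and, chosen after seeing the data, without the 2 pairs of scan 5. An unadjusted p under 0.05 was reached by 2422 of 27542 genes with no filter, and by 1172 to 1635 of 8346 genes in the other settings of this group. Leaving out each replicate gave 0 to 435 genes, 0 to 80 higher and 0 to 355 lower. The cause was not tested. The difference between models had 0 calls in limma throughout, with 477 genes at an unadjusted p under 0.05 in the reported fit.

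Median centring turned Ybx2 to 0.0095, Clu to 0.021, Cst3 to 0.11, Sox10 to 0.049, Olig2 to 0.022, Hba-a1 to 0.080, Rpl26 to 0.011, Rpl32 to 0.22, Glud1 to 0.28, Itgax to 0.0050, Mbp to 0.26 and Apln to 0.11, and moved the median of all genes to 0.09. Within scan 5, Mapt read -0.18, Csf1r 0.066, Sphk1 0.082 and Prdx2 -0.034, and within scan 6, Cst3 read 0.12, Fa2h -0.0071, Igf2 0.092, Rpl32 0.021, Mbp 0.13 and Dnajb6 -0.016. Gpr17 read -0.17 without the pairs of negative dye-switch correlation and -0.0089 to 0.35 without 1 replicate each, lowest without SOD1-G93A replicate 1.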
